A study of Mus musculus with 8 samples.

Results

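The genes described here are 10 transcripts that glucocorticoid hormones are known to induce in many cells: Fkbp5, Sgk1, Tsc22d3, Zbtb16, Klf9, Klf15, Ddit4, Errfi1, Cdkn1a and Mt1. They were matched by gene name, and all 10 had a row among the 41096 genes of the count table and passed the low-count filter that left 14875 genes for testing. RNA came from the left ventricle of 8 mice. The 4 mice of the HFD-LNAME group ate fat-rich food containing 0.5% L-NAME, which blocks the enzymes that make nitric oxide, and the 4 mice of the Normal Chow group ate standard food. Feeding lasted 9 weeks and began at 12 weeks of age. The labels spell the strain of all 8 mice C57BL/5NJ and give no sex, Nnt genotype, batch or hour of collection for any library. Nnt, the mitochondrial transhydrogenase whose presence the wider study varied, was expressed in every library, at 1121 to 2016 CPM (counts scaled to library size with TMM factors) in HFD-LNAME and 1611 to 2027 CPM in chow.

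Glucocorticoids are adrenal steroids (corticosterone in mice) that enter cells and bind the glucocorticoid receptor, encoded by Nr3c1. Chaperones of the Hsp90 family hold the free receptor in the cytoplasm, and the bound receptor moves to the nucleus and binds DNA at glucocorticoid response elements. Hormone release follows a daily rhythm and rises with stress, so the induced genes serve as a readout of hormone action over the preceding hours. In heart muscle the receptor is needed for normal contraction, and the mineralocorticoid receptor, encoded by Nr3c2, can bind the same hormone.

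Total counts were 31522074 to 41047658 in HFD-LNAME and 41852705 to 52053633 in chow, so the chow libraries were deeper (exact permutation test, two-sided, p = 0.0286, which is the lowest value 70 arrangements can give). The 8 cardiomyocyte markers summed to 69096 to 90269 CPM in HFD-LNAME and 80807 to 95714 CPM in chow. The 9 atrial markers (Myl7, Myl4, Sln, Bmp10, Nppa, Stard10, Dkk3, Clu and Fgf12) summed to 631 to 4921 CPM in HFD-LNAME and 781 to 3006 CPM in chow, and were lowest in HFD-LNAME 1, Normal Chow 2 and Normal Chow 4. Of 12 adipocyte markers 9 were tested, with sums of 515 to 820 CPM in HFD-LNAME and 489 to 605 CPM in chow. Of the 9, 8 had an unadjusted edgeR p under 0.05, all higher in HFD-LNAME, beside 5.02% of all genes higher. Of 7 smooth muscle markers 3 were likewise higher, and of 8 cardiomyocyte markers 3 were lower, beside 4.54% of all genes lower. The brown fat gene Ucp1 had 0 counts in HFD-LNAME 1 and 4 and in Normal Chow 1 and 4, and 487 and 166 counts in HFD-LNAME 2 and 3 and 2 and 14 counts in Normal Chow 2 and 3.

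No gene of the set passed the test for a difference between the groups, and what stood out was the spread between mice of the same group. Of the 10 genes, 0 passed with edgeR (quasi-likelihood test, Benjamini-Hochberg adjusted over all genes), where 0.0134% of all genes did. DESeq2 also called 0, against 0.963% of all genes, and limma-voom 0, against 0% of all genes. With edgeR 1 gene, Zbtb16, had an unadjusted p under 0.05 and was higher in HFD-LNAME, beside 9.56% of all genes in either direction and 5.02% in that direction. In 0 of 10 genes did the groups stand apart without overlap, beside 5.98% of all genes. The log2 fold change of HFD-LNAME over chow was above 0 in 6 genes and below 0 in 4, with a median of 0.077 over the set and 0.0024 over all genes tested. The SD of log2 CPM within groups had a median of 0.468 over the 10 genes, and all 10 lay above the median of 0.162 over the 10167 genes with a mean of at least 5 CPM.

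**Figure D1:**
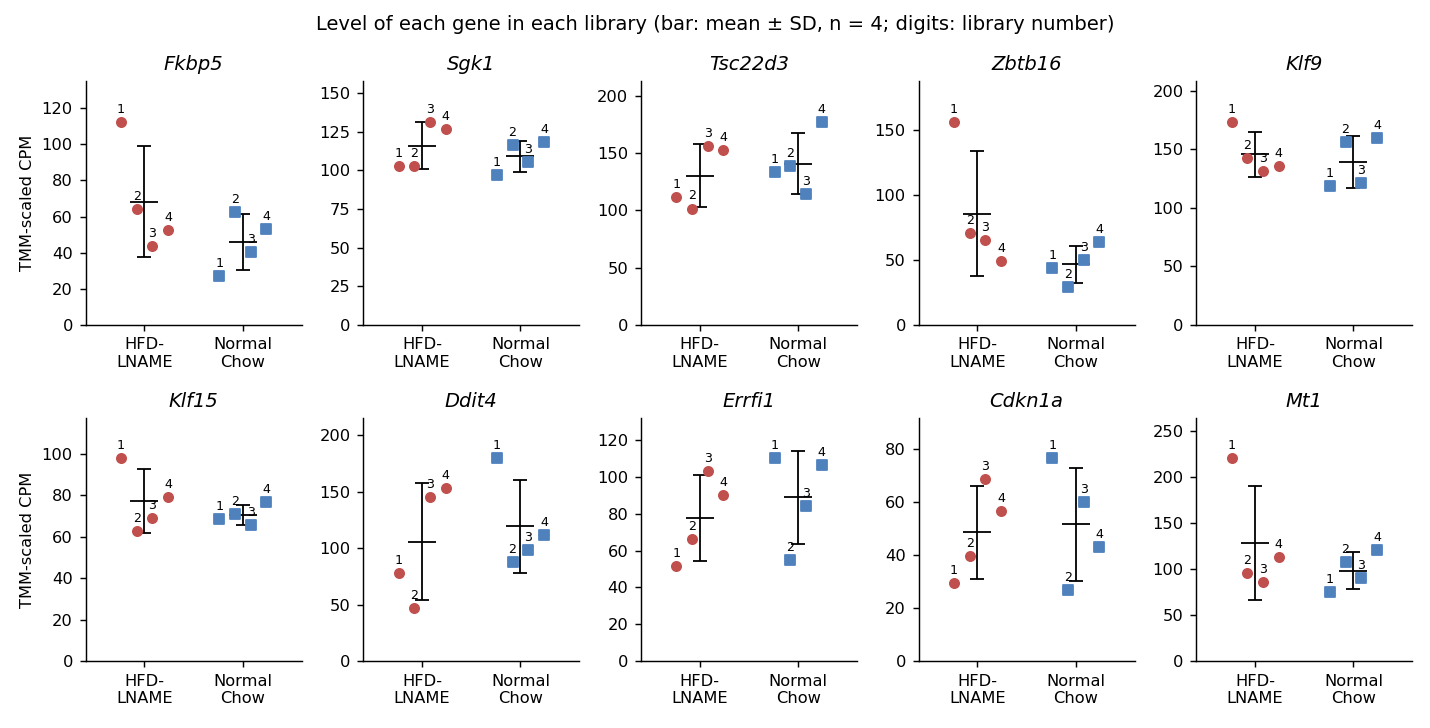
TMM-scaled CPM (vertical axis, from 0) of each of the 10 genes in the 4 HFD-LNAME libraries (circles, left) and the 4 Normal Chow libraries (squares, right), with mean ± SD. Digits give the library number. HFD-LNAME 1 is the highest library for 5 genes and the lowest or second lowest for 4, and the groups overlap in every panel. The share of all genes at their highest in that library is not given here.

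Fkbp5 encodes FKBP51, an Hsp90 cochaperone that lowers the hormone affinity of the receptor and so closes a feedback loop on it. Fkbp5 had 113, 64.4, 43.6 and 52.5 CPM in HFD-LNAME 1 to 4, against 27.0, 62.5, 40.4 and 53.1 CPM in Normal Chow 1 to 4. HFD-LNAME 1 was the highest and Normal Chow 1 the lowest library, 4.16-fold apart, while the other 6 lay between 40.4 and 64.4 CPM. The group means were 68.3 ± 30.8 CPM in HFD-LNAME and 45.8 ± 15.4 CPM in chow (SD, n = 4 each). The difference was 0.58 ± 0.30 in log2 (SE), with an adjusted p of 0.568 in edgeR. Without HFD-LNAME 1 it was 0.23 (edgeR adjusted p = 0.828).

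Zbtb16 encodes PLZF, a zinc finger repressor that steroid hormones induce strongly in several tissues. It had 156, 70.6, 65.5 and 49.1 CPM in HFD-LNAME 1 to 4, against 43.5, 29.2, 50.1 and 63.4 CPM in Normal Chow 1 to 4. HFD-LNAME 1 again stood highest, 3 of 4 HFD-LNAME libraries lay above every chow library, and HFD-LNAME 4 lay inside the chow range. Means were 85.4 ± 48.2 CPM in HFD-LNAME and 46.5 ± 14.2 CPM in chow (SD, n = 4 each). The log2 fold change, 0.88 ± 0.33 (SE; edgeR unadjusted p = 0.0207, adjusted p = 0.432), was the highest of the 10. Without HFD-LNAME 1 it was 0.41 (edgeR unadjusted p = 0.0820, adjusted p = 0.617), and without HFD-LNAME 4 it was 1.07. The groups then did not overlap, as must follow once the library inside the chow range is left out.

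Mt1 encodes metallothionein 1, a small cysteine-rich protein that binds zinc and copper and is induced by metals as well as by glucocorticoids. Mt1 had 221, 96.1, 86.5 and 113 CPM in HFD-LNAME 1 to 4, against 75.0, 108, 90.2 and 121 CPM in Normal Chow 1 to 4. A single library, HFD-LNAME 1, lay above the chow range, and the other 3 HFD-LNAME libraries lay within it. The log2 fold change was 0.39 ± 0.26 (SE; edgeR adjusted p = 0.683), and 0.0049 without HFD-LNAME 1. Mt2, which encodes a closely related metallothionein, had 39.4 CPM in HFD-LNAME 1, against 12.3 to 16.7 CPM in the other HFD-LNAME libraries and 11.3 to 21.5 CPM in chow.

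Sgk1 encodes a serum- and glucocorticoid-regulated kinase that raises the activity of sodium and other ion channels. Sgk1 had 103, 103, 132 and 126 CPM in HFD-LNAME 1 to 4, against 96.7, 116, 105 and 118 CPM in Normal Chow 1 to 4. It varied least of the 10, with 1.36-fold between the extremes, and HFD-LNAME 1 was among its lower libraries (log2 fold change 0.087 ± 0.10, SE; edgeR adjusted p = 0.838). Tsc22d3 encodes GILZ, a leucine zipper protein that carries part of the anti-inflammatory action of the hormone. Tsc22d3 had 111, 102, 156 and 153 CPM in HFD-LNAME 1 to 4, against 133, 138, 114 and 178 CPM in Normal Chow 1 to 4. HFD-LNAME 1 and 2 lay below every chow library and HFD-LNAME 3 and 4 among them (log2 fold change -0.11 ± 0.16, SE; edgeR adjusted p = 0.874).

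The promoters of Mt1 and Sgk1 are shown because, of 18 upstream windows of 250 bases, they were the ones that held a glucocorticoid response element. RefSeq promoters (build GRCm38.p6) were matched for 9 of the 10 genes, all but Zbtb16, with several start sites for some. The motif searched was the half-site GNACA, a gap of 3 bases and the reverse complement TGTNC. It reads the same on both strands, and 0.387% of 32851 windows of all genes held it. In Sgk1 the match lies within the full form with the half-sites AGAACA and TGTTCT, which 3 windows of all genes held. Capitals mark these motifs and, at the far end of the Sgk1 window, an E-box. Each window ends at the base before the annotated start.
Mt1 promoter, chr8:94178839-94179088, plus strand: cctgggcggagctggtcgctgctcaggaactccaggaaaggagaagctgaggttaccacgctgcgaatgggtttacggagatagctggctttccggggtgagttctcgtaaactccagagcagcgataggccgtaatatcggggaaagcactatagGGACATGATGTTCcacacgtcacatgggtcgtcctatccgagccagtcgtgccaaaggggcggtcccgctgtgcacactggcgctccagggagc
Sgk1 promoter, chr10:21993640-21993889, plus strand: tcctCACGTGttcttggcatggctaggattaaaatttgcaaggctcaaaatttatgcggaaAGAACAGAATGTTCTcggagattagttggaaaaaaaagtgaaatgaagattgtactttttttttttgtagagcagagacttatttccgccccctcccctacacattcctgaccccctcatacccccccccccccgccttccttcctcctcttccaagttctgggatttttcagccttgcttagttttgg
The Mt1 match begins 94 bases before the start and the full form in Sgk1 189 bases before it. Mt1 was at its highest in HFD-LNAME 1, and Sgk1 was at rank 6 of 8 there. Whether the match bears on the level of either gene was not tested. A match is a string of letters and does not show that the receptor was bound. Only 250 bases before each start were searched, so a window without a match does not show that a gene lacks the element.

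Klf9 and Klf15 encode Krüppel-like zinc finger factors that relay the hormone signal to further genes. Klf9 had 174, 143, 131 and 135 CPM in HFD-LNAME 1 to 4, against 119, 156, 121 and 160 CPM in Normal Chow 1 to 4. Its groups interleaved (log2 fold change 0.067 ± 0.12, SE; edgeR adjusted p = 0.908). Klf15, which in the heart promotes the breakdown of amino acids and lipids and restrains hypertrophy, had 97.8, 62.7, 69.2 and 79.1 CPM in HFD-LNAME 1 to 4, against 68.4, 70.9, 65.5 and 76.9 CPM in Normal Chow 1 to 4. The chow libraries were close together, with a coefficient of variation of 6.89%, while the HFD-LNAME libraries lay on both sides of them with 19.8% (log2 fold change 0.13 ± 0.12, SE; edgeR adjusted p = 0.785). Without HFD-LNAME 1 the log2 fold change of Klf15 was 0.0026, and without HFD-LNAME 2 it was 0.22.

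The remaining 3 genes are brakes on growth signals. Ddit4 encodes REDD1, which restrains the growth kinase complex mTORC1 and also responds to hypoxia and energy stress. Ddit4 had 77.8, 47.5, 145 and 153 CPM in HFD-LNAME 1 to 4, against 180, 87.7, 98.5 and 112 CPM in Normal Chow 1 to 4. HFD-LNAME 1 and 2 lay below and HFD-LNAME 3 and 4 inside the chow range, so the group was split (log2 fold change -0.17 ± 0.33, SE; edgeR adjusted p = 0.914).

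Errfi1 encodes MIG6, an inhibitor of the epidermal growth factor receptor. Errfi1 had 51.4, 66.1, 103 and 90.1 CPM in HFD-LNAME 1 to 4, against 110, 54.7, 84.0 and 106 CPM in Normal Chow 1 to 4. The lowest libraries were HFD-LNAME 1 and Normal Chow 2 (log2 fold change -0.19 ± 0.24, SE; edgeR adjusted p = 0.842). Cdkn1a encodes p21, an inhibitor of cyclin-dependent kinases that p53 also induces. Cdkn1a had 29.5, 39.6, 68.8 and 56.5 CPM in HFD-LNAME 1 to 4, against 76.5, 27.0, 59.9 and 42.9 CPM in Normal Chow 1 to 4. Here too HFD-LNAME 1 and Normal Chow 2 were lowest and Normal Chow 1 highest, 2.83-fold apart (log2 fold change -0.086 ± 0.31, SE; edgeR adjusted p = 0.961).

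**Figure D2:**
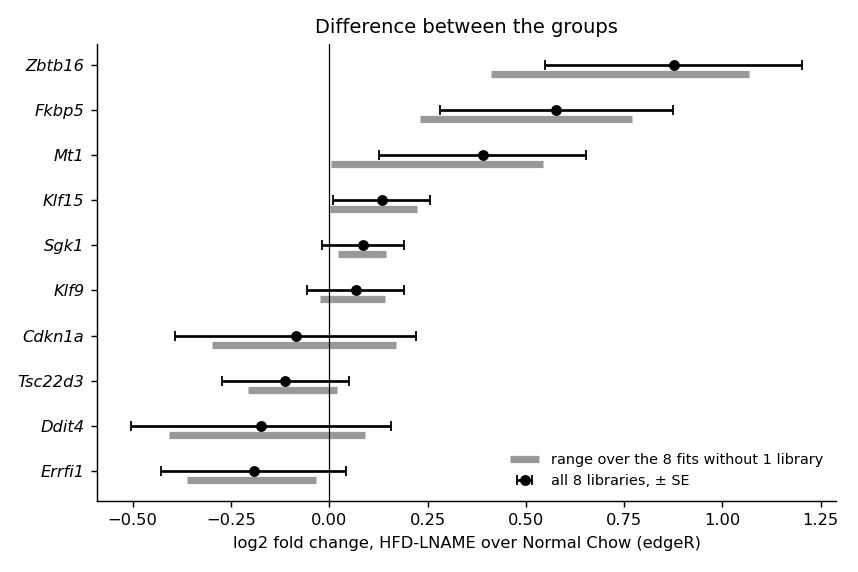
Log2 fold change of HFD-LNAME over Normal Chow (horizontal axis) with its SE for the 10 genes (points, n = 4 libraries each), and below each point, in grey, the range over the 8 fits that leave out 1 library. Zbtb16 is farthest to the right at 0.88 and Errfi1 farthest to the left at -0.19, and the grey range of Tsc22d3, Klf9, Ddit4 and Cdkn1a crosses 0.

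In the authors' deposited table, made with DESeq2, the adjusted p-values of the 10 genes ran from 0.467 for Zbtb16 to 0.978 for Cdkn1a, and all 10 log2 fold changes had the sign given here. The authors' deposited table gives Zbtb16 a log2 fold change of 0.88 and an unadjusted p of 0.0433.

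The 10 genes did not vary as 1 block over the libraries. Fkbp5, Mt1, Klf9, Klf15 and Zbtb16 were highest in HFD-LNAME 1, and Tsc22d3, Ddit4, Errfi1 and Cdkn1a were lowest or second lowest there. Fkbp5, Klf9, Mt1 and Sgk1 were lowest in Normal Chow 1, where Ddit4, Errfi1 and Cdkn1a were highest. Over the 45 pairs of genes and 8 libraries, 8 pairs had a Benjamini-Hochberg adjusted exact permutation p under 0.05 for Pearson's r, and 0 pairs for Spearman's rho, where the lowest was 0.0685 and 13 were under 0.05 unadjusted. Fkbp5 and Klf9 varied together (r = 0.883, exact permutation p = 0.00179, adjusted 0.0388; rho = 0.905, p = 0.00456, adjusted 0.0685; r = 0.752 without the 2 libraries farthest from the median of Fkbp5). Errfi1 and Cdkn1a did likewise (r = 0.870, exact permutation p = 0.00689, adjusted 0.0388; rho = 0.810, p = 0.0218, adjusted 0.138; r = 0.597 without 2 libraries). Fkbp5 and Cdkn1a ran opposite ways (r = -0.848, exact permutation p = 0.00372, adjusted 0.0388; rho = -0.905, p = 0.00456, adjusted 0.0685; r = -0.836 without 2 libraries). The genes share each library and its depth. The share of such pairs among all genes is not given here, so the count of 8 is not read as particular to this set.

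**Figure D3:**
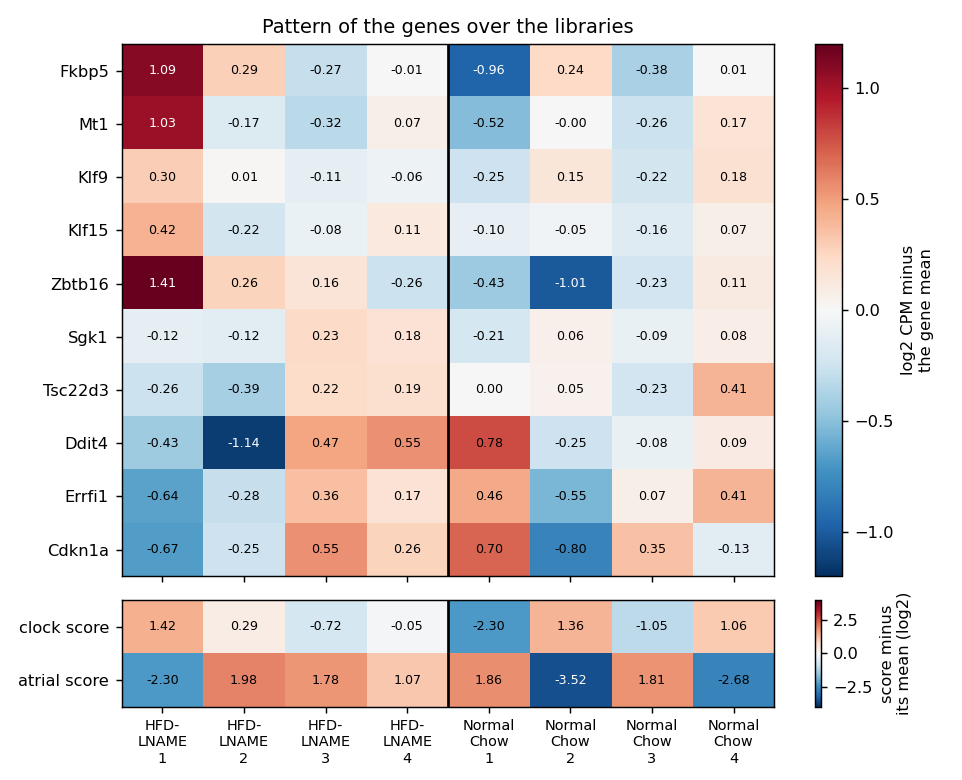
Log2 CPM minus the mean of the gene (upper block, colour and printed value) for the 10 genes in the HFD-LNAME libraries (left of the line) and Normal Chow libraries (right of it), and the clock and atrial scores minus their means (lower block). Fkbp5 is highest in HFD-LNAME 1 and lowest in Normal Chow 1, and Cdkn1a is highest in Normal Chow 1 and lowest in Normal Chow 2.

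Daily rhythm was set against these levels because glucocorticoids and the cellular clock are linked and the hour of collection is not in the labels. The clock runs on Arntl (BMAL1) and its partners, which switch on Per, Dbp and Nr1d genes. Of these, the Per and Nr1d products in turn repress Arntl or its protein. Arntl had 1.34, 7.23, 13.8 and 7.35 CPM in HFD-LNAME 1 to 4, against 26.6, 2.91, 17.9 and 5.33 CPM in Normal Chow 1 to 4. Dbp ran the other way, with 122, 109, 50.7 and 84.7 CPM in HFD-LNAME 1 to 4, against 22.1, 180, 49.9 and 148 CPM in Normal Chow 1 to 4. Arntl and Dbp differed widely between mice of a group. Chow held the highest level of Arntl and both extremes of Dbp. Not every clock gene did so in both groups. Per1 had 102 to 109 CPM in HFD-LNAME and 62.0 to 151 CPM in chow.

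A clock score was taken as the mean log2 CPM of Per1, Per2, Per3, Dbp, Tef, Nr1d1 and Nr1d2 minus that of Arntl, Npas2 and Nfil3. It was 4.43, 3.30, 2.30 and 2.96 in HFD-LNAME 1 to 4, against 0.71, 4.37, 1.96 and 4.07 in Normal Chow 1 to 4. The groups did not differ in it beyond their spread (3.25 ± 0.89 in HFD-LNAME and 2.78 ± 1.75 in chow, SD, n = 4 each; exact permutation p = 0.629).

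With group kept in the model, 2 of the 10 genes changed with the clock score in edgeR, beside 0.121% of all genes. Fkbp5 rose by 0.38 ± 0.06 on the log2 scale per unit of score (SE; edgeR adjusted p = 0.0431), and Cdkn1a had a slope of -0.39 ± 0.06 (SE; edgeR adjusted p = 0.0431). Unadjusted, 6 genes lay under 0.05, beside 9.43% of all genes, 3 with slopes above 0 (Fkbp5, Klf9 and Mt1) and 3 below (Cdkn1a, Ddit4 and Errfi1). The slope was 0.14 ± 0.03 for Klf9 (edgeR adjusted p = 0.149), 0.27 ± 0.07 for Mt1 (0.336), -0.26 ± 0.11 for Ddit4 (0.500) and -0.20 ± 0.08 for Errfi1 (0.495). DESeq2 called 3 genes, beside 1.08% of all genes, adding Klf9 (adjusted p = 0.00379), and limma-voom called the same pair as edgeR, beside 0.141%. Unadjusted, 4 genes lay under 0.05 with DESeq2, beside 10.3% of all genes, and 6 with limma-voom, beside 11.2%. The score and these tests were chosen after the data had been seen. Zbtb16 (0.16 ± 0.13), Klf15 (0.078 ± 0.046), Sgk1 (0.024 ± 0.044) and Tsc22d3 (0.020 ± 0.069) did not pass in any of these tools.

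Correlations over the 8 libraries were computed without the group. Klf9 followed the score closely (r = 0.949, exact permutation p = 0.00057, adjusted over 10 genes 0.0057; rho = 0.976, p = 0.000397, adjusted 0.00397; r = 0.975 without the 2 libraries farthest from the median score). Fkbp5 had r = 0.878 (exact permutation p = 0.0032, adjusted 0.0107; rho = 0.929, p = 0.00223, adjusted 0.00744; r = 0.813 without 2 libraries). Cdkn1a had r = -0.913 (exact permutation p = 0.00176, adjusted 0.0088; rho = -0.929, p = 0.00223, adjusted 0.00744; r = -0.883 without 2 libraries). Mt1 had r = 0.759 (exact permutation p = 0.024, adjusted 0.0599; rho = 0.857, p = 0.0107, adjusted 0.0268; r = 0.760 without 2 libraries).

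**Figure D4:**
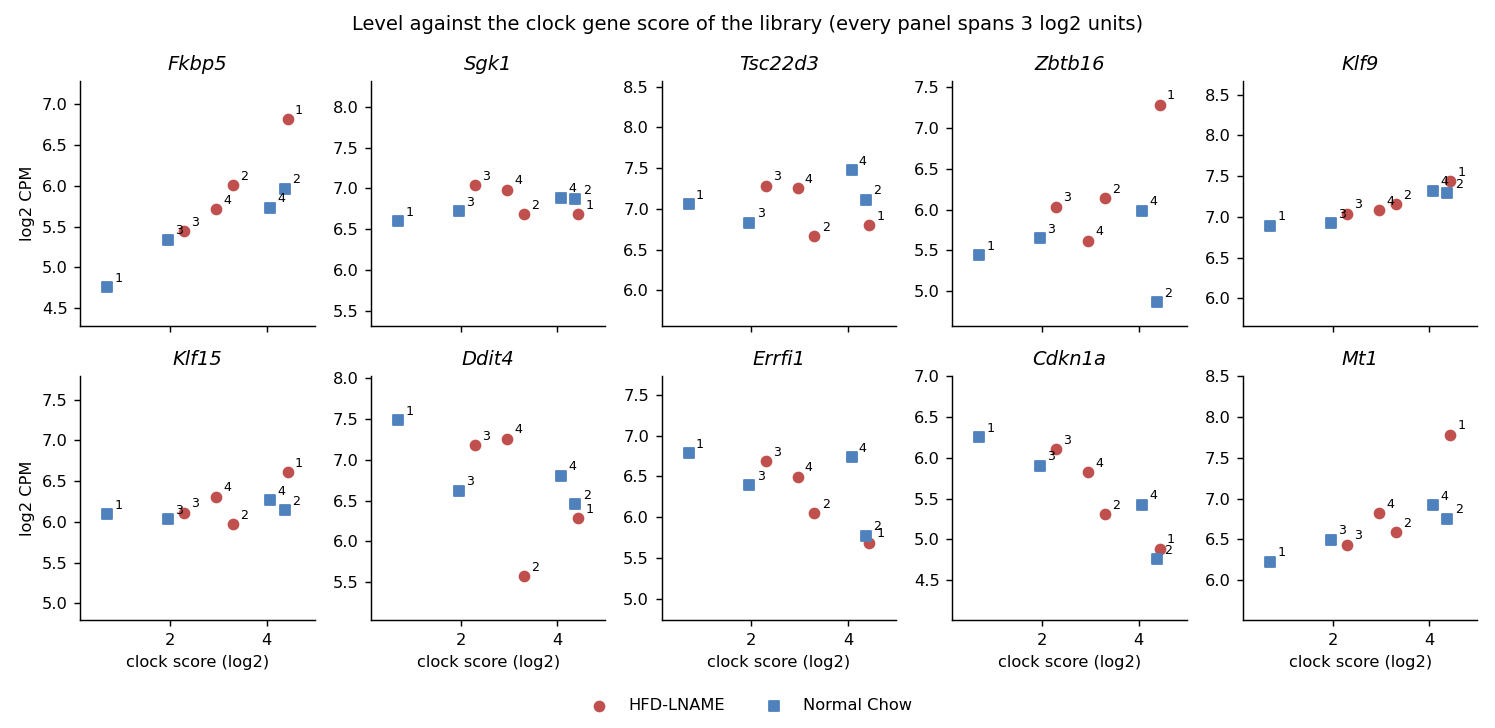
Log2 CPM of each gene (vertical axis, 3 log2 units in every panel) against the clock score of the library (horizontal axis, log2) in HFD-LNAME (circles) and Normal Chow (squares), with digits for the library number. Fkbp5 and Klf9 climb with the score from Normal Chow 1 to HFD-LNAME 1, Cdkn1a descends, and Zbtb16 holds its highest and lowest libraries, HFD-LNAME 1 and Normal Chow 2, at nearly the same score of 4.43 and 4.37.

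The clock score moved together with the atrial markers, of which 8 of 9 had slopes below 0 on it with an unadjusted p under 0.05. The atrial score, the mean log2 CPM of the 9 atrial markers, was 3.08, 7.36, 7.16 and 6.44 in HFD-LNAME 1 to 4, against 7.24, 1.86, 7.19 and 2.70 in Normal Chow 1 to 4. It ran opposite to the clock score (r = -0.815, exact permutation p = 0.0194; rho = -0.690, p = 0.0694; r = -0.871 without 2 libraries, n = 8). With the atrial score alone beside the group, 0 of the 10 genes passed in edgeR, beside 0.323% of all genes, and 5 had an unadjusted p under 0.05, beside 9.67%. The atrial slopes in that model were -0.19 ± 0.04 for Fkbp5 (edgeR adjusted p = 0.0634), 0.21 ± 0.04 for Cdkn1a (0.0838), -0.081 ± 0.016 for Klf9 (0.0823) and -0.16 ± 0.04 for Mt1 (0.108), and the unadjusted p of Klf15 was 0.0206. With both scores in the model, 0 of the 10 genes passed for the clock score, beside 0.00672% of all genes, and 2, Ddit4 and Cdkn1a, had an unadjusted p under 0.05, beside 2.71%. There the clock slope was -0.92 ± 0.26 for Ddit4 (edgeR unadjusted p = 0.00577), against -0.26 without the atrial score, and -0.39 ± 0.17 for Cdkn1a (unadjusted p = 0.0402). It was 0.32 ± 0.15 for Fkbp5 (unadjusted p = 0.0628), and for Klf9 it was 0.061 ± 0.079 (unadjusted p = 0.459), against 0.14 without the atrial score. The edgeR adjusted p was 1 for each of these, and the slope of Mt1 turned to -0.027. With both scores in the model the atrial slopes were -0.034 ± 0.083 for Fkbp5 and 0.0011 ± 0.093 for Cdkn1a (edgeR adjusted p = 0.999 for each). They were -0.40 ± 0.15 for Ddit4 and -0.14 ± 0.06 for Klf15 (edgeR unadjusted p = 0.0244 and 0.0301, adjusted p = 0.999 for each). With r = -0.815 between them over 8 libraries, the scores cannot be told apart for these genes. Over the 8 libraries Klf9 had r = -0.847 with the atrial score (exact permutation p = 0.0148, adjusted over 10 genes 0.146; rho = -0.667, p = 0.0831, adjusted 0.277; r = -0.869 without 2 libraries).

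The call for the clock score also rested on single libraries. The count of called genes was 0 without HFD-LNAME 3, HFD-LNAME 4, Normal Chow 1, Normal Chow 2 or Normal Chow 3. It was 1 without HFD-LNAME 1, 3 without Normal Chow 4, and 2 without HFD-LNAME 2. Over all genes these fits called 9, 15, 8, 4, 11, 14, 17 and 33, in that order. Over these 8 fits the slope of Fkbp5 ran from 0.31 to 0.41 and that of Cdkn1a from -0.47 to -0.34, with edgeR adjusted p up to 0.175 and 0.150. Per1 and Per2 are themselves glucocorticoid targets, and with a score without them the slopes were 0.39 and -0.41 (edgeR adjusted p = 0.0345 and 0.0267).

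With the clock score in the model, the log2 fold changes of HFD-LNAME over chow were 0.39 for Fkbp5, 0.74 for Zbtb16 and 0.21 for Mt1 (edgeR adjusted p = 0.369, 0.480 and 0.733). With the atrial score they were 0.80, 0.91 and 0.52 (0.134, 0.294 and 0.243), and 4 genes had an unadjusted p under 0.05, Fkbp5, Zbtb16, Mt1 and Klf9, beside 10.7% of all genes in that fit. HFD-LNAME 2 and 3 were highest in the adipocyte genes Ucp1, Cfd and Car3, although the summed adipocyte level was highest in HFD-LNAME 1. Without HFD-LNAME 2 and 3 the log2 fold changes of Fkbp5, Zbtb16 and Mt1 were 0.85, 1.15 and 0.76 (edgeR adjusted p = 0.594, 0.549 and 0.531). In bulk tissue, fewer cells of a type and less RNA per cell cannot be told apart.

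The promoters of Fkbp5 and Klf15 are shown because they held the E-box CACGTG, the palindromic sequence that the Arntl protein binds with its partner. It was in 3 of the 18 windows, those of Fkbp5, Klf15 and Sgk1, and in 6.02% of the windows of all genes. It has no letters in common with the response element match in Sgk1. Capitals mark the E-box.
Fkbp5 promoter, chr17:28486150-28486399, minus strand: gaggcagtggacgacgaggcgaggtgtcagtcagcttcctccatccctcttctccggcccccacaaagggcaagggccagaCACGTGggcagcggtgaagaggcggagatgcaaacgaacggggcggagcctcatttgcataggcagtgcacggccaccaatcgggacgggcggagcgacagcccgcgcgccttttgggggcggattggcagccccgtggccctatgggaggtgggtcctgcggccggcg
Klf15 promoter, chr6:90462326-90462575, plus strand: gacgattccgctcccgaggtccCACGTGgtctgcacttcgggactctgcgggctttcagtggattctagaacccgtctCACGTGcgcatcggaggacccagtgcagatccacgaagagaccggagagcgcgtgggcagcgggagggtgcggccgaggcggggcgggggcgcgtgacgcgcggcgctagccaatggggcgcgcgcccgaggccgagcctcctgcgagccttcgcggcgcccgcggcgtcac
The E-box begins 169 bases before the start of Fkbp5, and 228 and 172 bases before that of Klf15. The windows of Cdkn1a held no E-box in these letters. Whether the E-box bears on the clock slopes was not tested, and bases outside these windows were not searched.

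The receptors and the enzymes that switch the hormone on did not pass. Nr3c1, the glucocorticoid receptor, had 93.9, 109, 112 and 111 CPM in HFD-LNAME 1 to 4, against 113, 99.9, 106 and 97.5 CPM in Normal Chow 1 to 4 (log2 fold change 0.031 ± 0.08, SE; edgeR adjusted p = 0.942). For Nr3c2 the value was 0.078 ± 0.17 (edgeR adjusted p = 0.927). Hsd11b1, which regenerates active hormone inside cells, had one of 0.17 ± 0.21 (0.843). Hsd11b2, which inactivates the hormone in kidney, had 0 to 7 counts in each library and was not tested. Of this list 4 of 5 genes were tested, and 0 had an unadjusted p under 0.05 with edgeR.

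Among receptor chaperones, 5 of 8 were tested, and 0 passed with edgeR. Unadjusted, 2 were under 0.05, Fkbp4 and Stip1, both lower in HFD-LNAME, beside 4.54% of all genes in that direction. Fkbp4 encodes FKBP52, the close relative of FKBP51 that favours receptor transport and hormone binding. It had 387, 399, 474 and 482 CPM in HFD-LNAME 1 to 4, against 547, 534, 555 and 556 CPM in Normal Chow 1 to 4. The groups did not overlap (log2 fold change -0.33 ± 0.09, SE; edgeR adjusted p = 0.259). Stip1, which hands clients from Hsp70 to Hsp90, had 120, 121, 137 and 120 CPM in HFD-LNAME 1 to 4, against 163, 145, 159 and 156 CPM in Normal Chow 1 to 4, also without overlap (-0.32 ± 0.08; edgeR adjusted p = 0.233). With DESeq2 both passed, at adjusted p of 0.0349 for Fkbp4 and 0.0244 for Stip1. The authors' deposited table gives them adjusted p of 0.0322 and 0.0236. Of the 9 coregulators all 9 were tested, and 0 were under 0.05 unadjusted.

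Of 30 further glucocorticoid targets 29 were tested, and 0 passed with edgeR. Pdk4 alone had an unadjusted p under 0.05, beside 9.56% of all genes, and the median log2 fold change was 0.087. Pdk4, a kinase that blocks pyruvate oxidation and also answers to fatty acids, had 2265, 1284, 1123 and 1175 CPM in HFD-LNAME 1 to 4, against 1010, 476, 1131 and 1188 CPM in Normal Chow 1 to 4 (log2 fold change 0.62 ± 0.28, SE; edgeR adjusted p = 0.520). HFD-LNAME 1 was again the highest library. Per1, which is both a hormone target and a clock gene, had 102 to 109 CPM in HFD-LNAME and 62.0 to 151 CPM in chow (-0.075 ± 0.23; edgeR adjusted p = 0.952). For the clock score 8 of the 29 were under 0.05 unadjusted, 7 with slopes above 0 and 1 below, beside 9.43% of all genes, with 0 past the adjusted threshold. Per1 is 1 of the 7 and is part of the score.

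The pathways that the 10 genes act on were read the same way, and 0 of their genes passed with edgeR. Of 7 genes linked to KLF15, 0 had a log2 fold change above 0, where 50.5% of all genes did, with a median of -0.31. The list holds genes of amino acid and glucose use and Kcnip2, which encodes a potassium channel subunit. In it 3 genes had an unadjusted p under 0.05, all lower, beside 4.54% of all genes lower. They were Gpt (-0.45 ± 0.13), Bcat2 (-0.34 ± 0.10) and Bckdhb (-0.28 ± 0.10), with edgeR adjusted p of 0.289, 0.315 and 0.404. The cardiomyocyte markers lay the same way, with 0 of 8 above 0, a median of -0.15 and 3 lower at an unadjusted p under 0.05, Tnnt2 without overlap, and their part in the values of the KLF15 list was not tested. Bcat2, which starts the breakdown of branched-chain amino acids, had 169 to 179 CPM in HFD-LNAME and 186 to 266 CPM in chow.

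Of 13 p53 targets tested, 2 were under 0.05 unadjusted and lower, beside 4.54% of all genes, Ccng1 (-0.25 ± 0.07) and the sestrin gene Sesn2 (-0.68 ± 0.27), with edgeR adjusted p of 0.265 and 0.460. Ccng1, a cyclin, had 915 to 994 CPM in HFD-LNAME and 1081 to 1175 CPM in chow. Ccng1 passed with DESeq2 (adjusted p = 0.0377), and the authors' deposited table gives it an adjusted p of 0.0349. Sesn2 also restrains mTORC1 and was the 1 of 10 genes of that list under 0.05 unadjusted. The SGK1 list had 1 of 7, Ndrg1 (0.30 ± 0.11; edgeR adjusted p = 0.437), and the relatives of the 10 genes had 2 of 14, Fkbp4 and Klf10 (0.68 ± 0.23; 0.370). Over all genes 9.56% were under 0.05 unadjusted, so these shares are near the background. The zinc list (5 tested) and the EGF receptor list (6 tested) had 0.

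**Figure D5:**
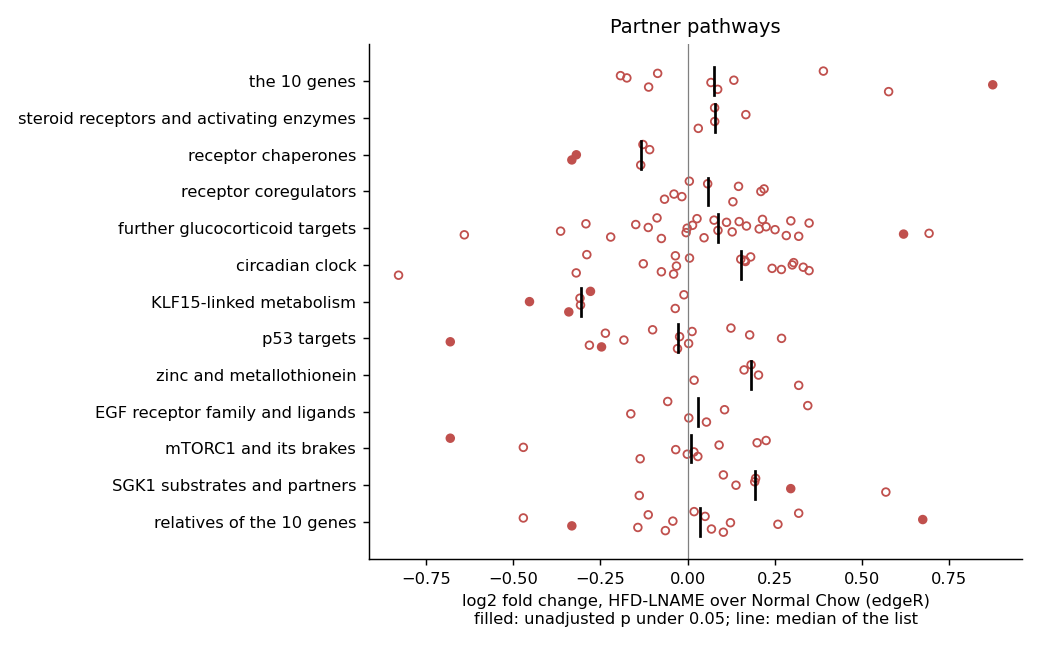
Log2 fold change of HFD-LNAME over Normal Chow (horizontal axis) for each tested gene of the partner lists (points, n = 4 libraries a group), filled where the unadjusted edgeR p is under 0.05, with the median of each list as a line. The KLF15-linked list has its median at -0.31 and receptor chaperones at -0.13, while the other medians lie between -0.03 and 0.19.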

How the data were processed

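RNA from the left ventricle was sequenced from 8 mice. The tools named per the submitters' processing notes are STAR 2.6, DESeq2 1.22.1, Trim Galore 0.4.0 and bcl2fastq 1.8.4. A human build is named there, whereas the row names are of the C57BL/6NJ strain. How reads were counted, and with what strand setting, is not given in the sources used here. The authors deposited raw counts per gene, and a table of log2 fold changes, a test score, p-values and a mean normalised signal per gene. Gene names came from that deposited table. Its normalised columns and those of its subsets (24 in all) were not used.

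The main test was edgeR's quasi-likelihood test (version 4.0.16, R 4.3.3) on the deposited counts, with TMM factors and group as the only term. filterByExpr with a minimum count of 10 left 14875 genes, over which p-values were adjusted by Benjamini-Hochberg, with a threshold of 0.05. SE is the log2 fold change over the square root of F. DESeq2 1.42.0, limma-voom 3.58.1, other scalings and filters, and fits without single libraries were alternatives. The edgeR tests of the clock and atrial scores as terms beside the group were chosen after the data were seen. Correlations used log2 CPM with a prior count of 2. The genes and lists were chosen with earlier results of these data known. All 10 genes are named, with up to 6 genes per other list with an unadjusted p under 0.05 and at least 1 CPM, and a few fixed genes. The clock genes Arntl and Dbp were named after their values were seen. The steps were tested on simulated data. Chi-square per degree of freedom between libraries of a group was 25.3 to 64.7, so no library was counted as a repeat. The labels do not say how replicates were made beyond a number in each title, so p-values measure the spread between these samples. Library numbers follow accession order and are names only.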

Additional observations from a re-analysis of the deposited data

Results flagged for a closer look

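In 78 groups of 4 libraries checked over the named genes, 6 held a library far from its 3 fellows, and chance alone gives about 1 in 20. All of the 6 but that of Mt2 were in genes named for an unadjusted edgeR p under 0.05 between the groups. The rate of 1 in 20 need not hold for genes picked in that way. HFD-LNAME 1 was the far library for Mt2 (39.4 CPM), Pdk4 (2265 CPM) and Klf10 (37.1 CPM). Fkbp5, Zbtb16, Mt1, Klf9 and Klf15 were also highest in it, while Tsc22d3, Ddit4, Errfi1 and Cdkn1a were lowest or second lowest. Stip1 stood apart in HFD-LNAME 3 at 137 CPM, nearer to chow than its fellows. In Normal Chow 1 the adipocyte markers Car3 (10.4 CPM) and Cfd (1.56 CPM) stood above the other chow libraries.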

How the results depend on the processing

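No gene of the set passed for the group difference under any of the 19 alternatives. The count under 0.05 unadjusted was 1, and it was 2 with no filter on low counts, 0 with the robust edgeR fit, 4 without HFD-LNAME 2 and 3, 4 with the atrial score and 0 to 2 in the fits without 1 library. The share of all genes under 0.05 was 9.56%, and it was 8.46% with no filter, 9.43% with the robust fit, 7.7% without HFD-LNAME 2 and 3, 10.7% with the atrial score and 7.8% to 10.3% without 1 library. The count without overlap was 1 without HFD-LNAME 2 and 3, and 0 to 1 without 1 library. Groups of fewer libraries stand apart more easily, and the share of all genes without overlap in those fits is not given here. Over all genes edgeR called 2, DESeq2 161, limma-voom 0, edgeR with no filter 34, the robust fit 1, and 0 without HFD-LNAME 2 and 3 or with the atrial score (0 to 3 without 1 library). With the clock score the log2 fold change of Cdkn1a turned to 0.13. Without 1 library those of Tsc22d3 (-0.21 to 0.019), Klf9 (-0.024 to 0.14), Ddit4 (-0.41 to 0.092) and Cdkn1a (-0.30 to 0.17) turned. For the clock score 2 genes were called, 1 with library totals alone, 0 with the atrial score and 0 to 3 without 1 library. Over all genes these fits called 18, 13, 1 and 4 to 33. The slope of Tsc22d3 turned with library totals (-0.0020) and with the atrial score (-0.19), where those of Sgk1 (-0.0050), Zbtb16 (-0.10), Klf15 (-0.16) and Mt1 (-0.027) turned too. Without 1 library the slopes of Sgk1 (-0.034 to 0.055), Tsc22d3 (-0.042 to 0.058) and Zbtb16 (-0.0082 to 0.33) turned. The cause was not tested. No paired analysis was possible because the labels give no replicate numbers shared between the groups. With 4 mice a group, the differences of Zbtb16 and Fkbp5 did not pass after adjustment over all genes, which does not show that the groups were alike.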

Other observations

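The pattern most like that of the set was looked for among genes with a mean of at least 5 CPM. The measure was Pearson's r over the 8 libraries with the mean of the centred log2 CPM of the 10 genes. The 5 nearest genes were Ip6k1 (r = 0.958), Kmt2b (0.947), Slc12a9 (0.935), Dgka (0.932) and Rc3h1 (0.928), given as a description. Ip6k1, an inositol phosphate kinase, had 68.2, 57.6, 66.7 and 63.5 CPM in HFD-LNAME 1 to 4, against 61.1, 57.3, 57.5 and 68.6 CPM in Normal Chow 1 to 4. As the 10 genes run in opposite ways over the libraries, their mean moves little.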
